A study of Mus musculus with 6 samples.

Results

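10 genes of the nuclear receptor family were followed from embryonic stem cells (ESCs) to epiblast-like cells (EpiLCs) of the mouse. They are Esrrb, Esrra, Nr0b1, Nr5a2, Nr6a1, Nr2f2, Nr2f6, Rarg, Rxra and Rxrb. Each was found by its symbol in the deposited table, once each, so the 10 genes are 10 of 78298 rows. The receptor family as a whole was taken as 49 mouse genes. The 6 libraries are of poly(A) RNA from cells of wild-type genotype, 3 from ESCs and 3 from EpiLCs. Both groups came from 1 line, named BVSC clone H18 in the labels, so nothing here speaks for other clones. The labels give no culture medium, treatment, time of induction, sex or age, and they number the libraries of a group as biological repeats with no word on separate cultures. A p-value here thus measures the spread between libraries, which may be technical.

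Nuclear receptors are transcription factors with a zinc finger DNA-binding domain and a ligand-binding domain, and many recognise the hexamer AGGTCA alone or repeated. ESCs in culture resemble the naive epiblast of the embryo, and Esrrb and Nr5a2 are known there as activators of the naive pluripotency network. Nr0b1, also called Dax1, lacks the zinc finger domain and acts as a corepressor of other receptors. Nr6a1, also called GCNF, is known to repress Pou5f1 as pluripotent cells differentiate, and retinoic acid receptors act as heterodimers with the retinoid X receptors.

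The 250 bases before the annotated start are shown for 4 of the genes, 3 that fell and 1 that rose in EpiLCs, with the AGGTCA hexamer marked (in capitals, on either strand, TGACCT being its reverse complement). The sequences are from RefSeq on GRCm38.p6, 5′ to 3′ in the direction of the gene. They cover the first listed start of Esrrb, Nr5a2 and Nr0b1 and the other listed start of Nr6a1, which was shown because it holds the hexamer. Which start was used in these cells was not measured.
Esrrb, chr12:86360867-86361116, plus strand: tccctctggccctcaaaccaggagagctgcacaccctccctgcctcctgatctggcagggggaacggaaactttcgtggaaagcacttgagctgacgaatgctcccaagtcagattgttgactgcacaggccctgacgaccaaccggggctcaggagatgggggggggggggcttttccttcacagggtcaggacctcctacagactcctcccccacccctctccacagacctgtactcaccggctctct
Nr5a2, chr1:136960449-136960698, minus strand: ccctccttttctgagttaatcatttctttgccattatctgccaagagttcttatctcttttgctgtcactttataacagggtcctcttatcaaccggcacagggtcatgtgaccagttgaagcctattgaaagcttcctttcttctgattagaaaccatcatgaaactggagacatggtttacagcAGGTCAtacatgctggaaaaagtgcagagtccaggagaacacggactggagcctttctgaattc
Nr0b1, chrX:86191525-86191774, plus strand: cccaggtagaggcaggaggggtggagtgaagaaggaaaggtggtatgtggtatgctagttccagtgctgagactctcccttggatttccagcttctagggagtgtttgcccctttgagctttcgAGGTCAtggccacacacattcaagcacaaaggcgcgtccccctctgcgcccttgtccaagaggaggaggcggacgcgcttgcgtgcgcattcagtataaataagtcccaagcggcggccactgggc
Nr6a1, chr2:38784516-38784765, minus strand: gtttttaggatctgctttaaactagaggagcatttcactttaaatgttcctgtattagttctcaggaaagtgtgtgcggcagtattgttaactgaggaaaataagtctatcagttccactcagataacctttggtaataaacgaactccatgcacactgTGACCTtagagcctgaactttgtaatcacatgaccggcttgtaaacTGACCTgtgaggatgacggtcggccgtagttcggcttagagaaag

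The Nr0b1 stretch held 1 hexamer, beginning 126 bases before the start, and the Nr5a2 stretch held 1, beginning 64 bases before the start. Both were on the strand of the gene. The Nr6a1 stretch held 2 on the opposite strand, beginning 91 and 45 bases before the start, and the Esrrb stretch held none. The first listed start of Nr6a1 and the other listed starts of Nr5a2 and Esrrb had none either. Over all 16 listed starts of the 10 genes, 5 had an AGGTCA within 250 bases, and among 32851 promoters of the same length 14.0% had one. The longer form AAGGTCA, which contains AGGTCA and is favoured by receptors that bind as monomers, was found at 2 of the 16 starts and in 4.08% of all promoters. TCAAGGTCA, the element named after SF1 and the estrogen-related receptors, was found at 0 of 16 starts and in 0.387% of all promoters. These are matches of letters in short windows and do not show binding. The promoters also differed in base composition. The 250 bases before Esrrb held 6 CpG dinucleotides at the start shown and 3 at the other listed start, those before Nr5a2 held 2 and 6, and those before Nr0b1 held 11. The stretch before Nr2f6 held 42, and the listed starts of Rxrb held 31 and 39. Those of Rarg held 11 and 10, and those of Nr6a1 held 4 and 7. The listed starts of Rxra held 40 and 1, while Esrra held 22 and Nr2f2 held 1. The median over all promoters was 6.0. The bases just after the Nr2f2 start and after the first listed Rarg start were not found in annotated transcripts of these genes. That Rarg start is among the 5 with an AGGTCA.

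Expression values are TPM, the share of a library that a gene's transcripts take, scaled for transcript length and to 1000000 per library, so levels of different genes can be set side by side. Every library summed to 1000000 TPM, which leaves the sequencing depth behind a value unknown, and 13610 to 13983 genes reached 1 TPM in a library. Means are given ± SD over n = 3 libraries, and a log2 fold change is the EpiLC level less the ESC level in log2(TPM + 1). Adding 1 TPM makes the change of weakly expressed genes look smaller. Genes with a mean of at least 1 TPM were tested with limma, and a call is an adjusted p under 0.05 over all tested genes. In this comparison 66.9% of 14036 tested genes were called, 36.1% higher and 30.9% lower in EpiLCs. A call by itself is therefore common, and 19.3% of tested genes were called with a change of at least 2-fold.

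The labelled states matched their markers. All 5 naive markers (Klf4, Tfcp2l1, Tbx3, Zfp42 and Nanog) fell in EpiLCs, with summed levels of 815 to 929 TPM in ESCs and 216 to 245 TPM in EpiLCs. All 4 formative epiblast markers (Fgf5, Otx2, Dnmt3b and Pou3f1) rose, from sums of 13.9 to 15.8 TPM to sums of 439 to 633 TPM. The 6 primitive endoderm markers summed to 5.21 to 6.41 TPM in ESCs and 1.20 to 2.43 TPM in EpiLCs, with 1 called lower. The 7 fibroblast or feeder markers summed to 3.19 to 5.72 and 13.4 to 16.6 TPM, with 2 called higher, Thy1 and Dcn. Thy1 alone was at 11.2 ± 1.58 TPM in EpiLCs. Dcn and Col3a1 were listed at 0 in every ESC library, and Col3a1 was at 0.0223 ± 0.00548 TPM in EpiLCs. Below the filter, Col1a1 was lower in EpiLCs, at 0.918 ± 0.387 TPM in ESCs and 0.380 ± 0.0770 TPM in EpiLCs. Col1a2 and Acta2, also below it, were higher in EpiLCs, and Lum was near 0 in both. The 5 neural markers summed to 11.7 to 14.9 and 23.6 to 34.5 TPM with 3 called higher, the 6 trophoblast markers to 8.81 to 13.1 and 6.38 to 10.6 TPM with 1 called lower, and the 5 mesoderm markers to 1.38 to 1.50 and 1.60 to 1.73 TPM with none tested. In bulk RNA, fewer cells that express a gene and less RNA per cell cannot be told apart.

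Of the 10 receptors, 9 passed the filter at 1 TPM. In EpiLCs 3 of them fell, Esrrb, Nr5a2 and Nr0b1, and 4 rose, Rarg, Nr2f6, Nr6a1 and Rxrb, while Esrra and Rxra did not pass the test. Nr2f2 was below the filter in both states. The 7 called among 9 tested (77.8%) stand beside 66.9% of all tested genes, and the 7 whose ESC and EpiLC values did not overlap stand beside 71.5%. Changes of at least 2-fold were called for 3 lower and 2 higher receptors, where 9.40% and 9.87% of all tested genes were so called. The median change of the 9 was 0.13 on the log2 scale against 0.04 for all tested genes, and the median size of the change was 1.58 against 0.44. The genes were chosen with earlier results known, so these shares describe the selection.

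**Figure D1:**
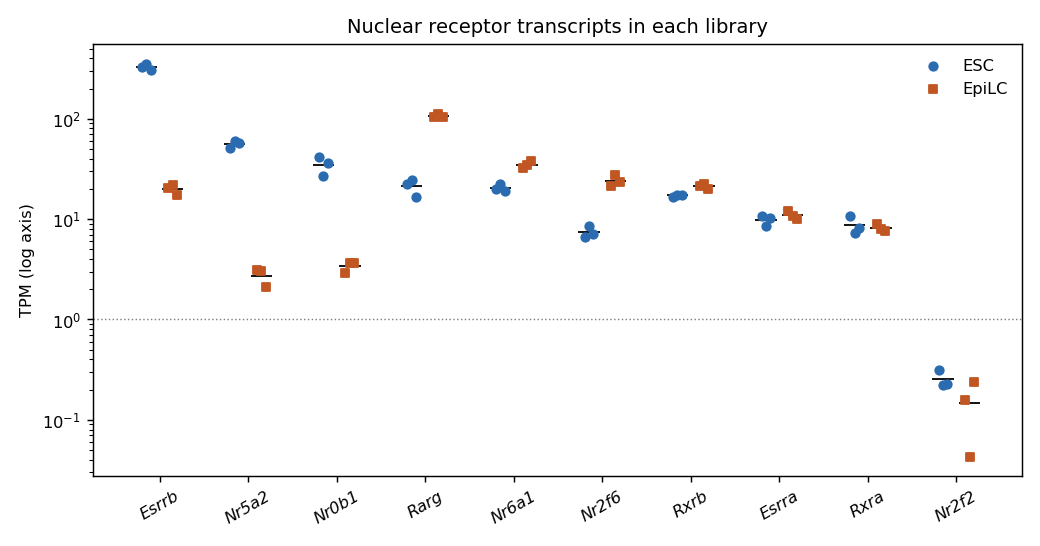
TPM of 10 nuclear receptor genes in each of 3 ESC libraries (circles) and 3 EpiLC libraries (squares), on a log axis, with the group mean as a bar and 1 TPM as a dotted line. Esrrb, Nr5a2 and Nr0b1 were higher in every ESC library, and Rarg, Nr6a1, Nr2f6 and Rxrb in every EpiLC library.

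Esrrb (ENSMUSG00000021255, chromosome 12), the estrogen-related receptor of the naive state, had the highest level of all nuclear receptors in ESCs. It stood at 329.7, 354 and 307 TPM in the 3 ESC libraries and at 20.4, 21.7 and 17.3 TPM in the EpiLC libraries. The groups were far apart, and replicate 2 was the highest of each. The log2 fold change was -4.00 (SE 0.09, 95% interval -4.21 to -3.79, limma adjusted p = 1.3e-07), and the ratio of the means was 16.7. The remaining 19.8 ± 2.26 TPM in EpiLCs overlapped the range of Rxrb in the same libraries. Esrra (ENSMUSG00000024955, chromosome 19), a relative with a broad role in mitochondrial gene expression, was at 10.7, 8.61 and 10.3 TPM in ESCs and 11.9, 10.7 and 10.02 TPM in EpiLCs. These ranges overlapped, and the log2 fold change of 0.13 (95% interval -0.12 to 0.38, limma adjusted p = 0.327) did not pass the test. The interval leaves room for changes up to 0.38 in size. Esrra overlaps Trmt112 on the opposite strand (70.3 TPM in ESCs and 83.6 TPM in EpiLCs), and the sources used here do not give whether reads were counted by strand.

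The estrogen-related group thus lost most of its transcripts and changed in make-up. The summed TPM of Esrra, Esrrb and Esrrg was 340.5, 363 and 318 in ESCs and 32.3, 32.5 and 27.4 in EpiLCs. Esrrb held 97.1 ± 0.477% of the sum in ESCs and 64.4 ± 2.12% in EpiLCs, and Esrra went from 2.92 ± 0.480% to 35.5 ± 2.24%. Every EpiLC library lay outside the ESC range for both shares (two-sided exact permutation p = 0.1, the smallest that 3 against 3 libraries allow, and 0.112 adjusted over 29 such comparisons). Esrrg was at 0.0241 ± 0.0122 TPM in ESCs and 0.0473 ± 0.0476 TPM in EpiLCs.

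Nr5a2 (ENSMUSG00000026398, chromosome 1), also called LRH-1, binds the same kind of extended hexamer as Esrrb. Its levels were 50.8, 59.8 and 57.7 TPM in ESCs and 3.09, 3.03 and 2.08 TPM in EpiLCs. No value of either state came near the other, and the log2 fold change was -3.94 (SE 0.13, 95% interval -4.24 to -3.65, limma adjusted p = 3.8e-07). Nr5a2 is also known from endoderm. In these libraries the sum of the primitive endoderm markers was lower in EpiLCs, as given above. Only Gata4 of the 6 passed the filter, and it was called lower. The part of such cells in the Nr5a2 result was not tested.

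Nr6a1 (ENSMUSG00000063972, chromosome 2) rose. Its levels were 19.7, 22.5 and 19.0 TPM in ESCs and 32.1, 34.4 and 38.3 TPM in EpiLCs, without overlap (log2 fold change 0.75, SE 0.09, 95% interval 0.54 to 0.96, limma adjusted p = 1.9e-04). Its annotated antisense transcript Nr6a1os was at 0.0159 TPM in EpiLCs and listed at 0 in ESCs. Set beside Nr5a2, whose binding element it shares, the order of the pair turned over. Nr5a2 made up 73.3 ± 1.70% of the summed TPM of Nr5a1, Nr5a2 and Nr6a1 in ESCs and 7.34 ± 1.92% in EpiLCs, and Nr6a1 26.7 ± 1.70% and 92.6 ± 2.02% (exact permutation p = 0.1 for each). The sum itself was 76.5 ± 5.88 TPM in ESCs and 37.7 ± 2.56 TPM in EpiLCs. Nr5a1, the steroidogenic factor, was at 0.0155 ± 0.0177 and 0.0400 ± 0.0359 TPM.

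Nr0b1 (ENSMUSG00000025056) was at 41.3, 27.1 and 36.4 TPM in ESCs and at 2.93, 3.67 and 3.62 TPM in EpiLCs. ESC replicate 2 had the lowest level of its group, while the same library had the highest Esrrb and Nr5a2. The spread of Nr0b1 in ESCs was 20.7% of its mean, against 7.09% for Esrrb and 8.38% for Nr5a2. The log2 fold change was -3.01 (SE 0.16, 95% interval -3.37 to -2.65, limma adjusted p = 2.6e-06). Nr0b1 lies on the X chromosome, whose 525 tested genes had a median log2 fold change of 0.04.

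The 3 receptors that fell fell by unequal amounts in these libraries. Within a library, the log2 ratio of Nr5a2 to Nr0b1 was 0.30, 1.14 and 0.67 in ESCs and 0.08, -0.28 and -0.80 in EpiLCs, so that Nr5a2 lost its lead over Nr0b1 in 2 of 3 EpiLC libraries. The ratio of Esrrb to Nr0b1 was 3.26 ± 0.39 in ESCs and 2.54 ± 0.27 in EpiLCs, and that of Esrrb to Nr5a2 was 2.56 ± 0.14 and 2.87 ± 0.17. For each of these 3 ratios the groups did not overlap (two-sided exact permutation p = 0.1, the smallest this test can give here, 0.112 adjusted over the 29 comparisons). As ratios of group means, Nr5a2 was 20.5 times, Esrrb 16.7 times and Nr0b1 10.2 times lower in EpiLCs.

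**Figure D2:**
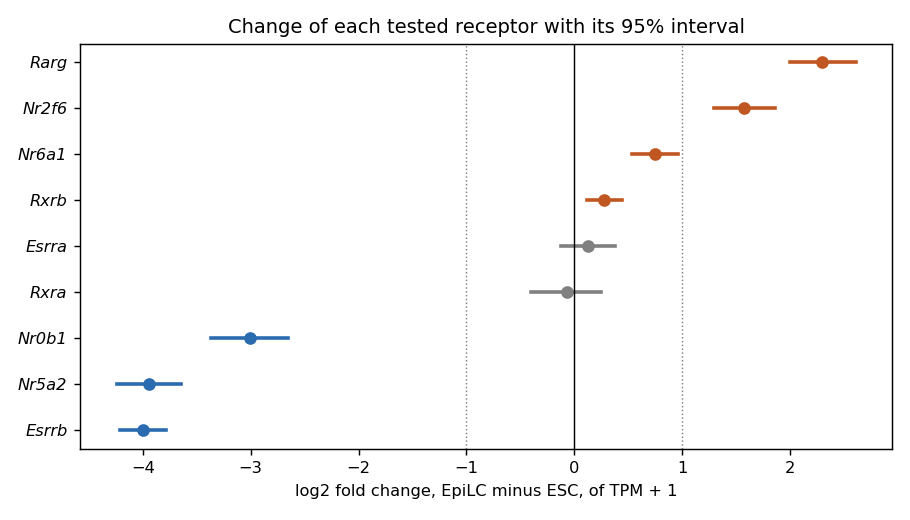
Change of the 9 tested receptors as log2 fold change of TPM + 1, EpiLC minus ESC, with the 95% interval of the limma fit (blue lower, orange higher, grey not called) and dotted lines at a 2-fold change. The intervals of Esrrb, Nr5a2 and Nr0b1 lie below -2, those of Rarg and Nr2f6 above 1, and those of Esrra and Rxra include 0.

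Rarg (ENSMUSG00000001288, chromosome 15), a receptor for retinoic acid, showed the opposite change and became the most abundant nuclear receptor transcript in EpiLCs. It was at 22.3, 24.8 and 16.6 TPM in ESCs and at 105, 112 and 105 TPM in EpiLCs. The 3 EpiLC values lay close together and all ESC values were far below them (log2 fold change 2.30, SE 0.13, 95% interval 2.00 to 2.61, limma adjusted p = 3.8e-06). Its paralog Rara showed no call, with 26.3 ± 2.96 TPM in ESCs and 23.1 ± 2.57 TPM in EpiLCs (log2 fold change -0.18, limma adjusted p = 0.172). Rarb was at 0.270 ± 0.108 and 0.240 ± 0.142 TPM, below the filter. Rarg accounted for 44.2 ± 3.14% of the summed TPM of the 3 retinoic acid receptors in ESCs and 82.2 ± 1.35% in EpiLCs (exact permutation p = 0.1), while the sum was 47.7, 54.8 and 40.8 TPM in ESCs and 129, 138 and 126 TPM in EpiLCs.

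Among the retinoid X receptors, the partners of many other receptors, Rxrb and Rxra moved less than Rarg. Rxrb (ENSMUSG00000039656, chromosome 17) was at 16.8, 17.5 and 17.5 TPM in ESCs and 21.2, 22.4 and 20.1 TPM in EpiLCs, a small rise without overlap (log2 fold change 0.28, SE 0.07, 95% interval 0.12 to 0.44, limma adjusted p = 0.0076). Rxra (ENSMUSG00000015846, chromosome 2) was at 10.7, 7.34 and 8.15 TPM and at 8.96, 7.95 and 7.57 TPM, with overlapping ranges and ESC replicate 1 as the highest value (log2 fold change -0.07, 95% interval -0.40 to 0.25, limma adjusted p = 0.657). Without ESC replicate 1 its estimate was 0.065 (adjusted p = 0.651, the alternatives spanning 0.299 to 0.891), so no direction can be read. The third paralog, Rxrg, was listed at 0, 0.0442 and 0 TPM in ESCs and reached 4.09, 3.48 and 4.11 TPM in EpiLCs (log2 fold change 2.27, limma adjusted p = 3.2e-06). The size of this change depends on the pseudocount, being 3.09 with 0.5 TPM and 5.14 with 0.1 TPM added in place of 1 TPM. It thereby supplied 11.7 ± 1.33% of the summed RXR transcripts in EpiLCs. The share of Rxrb there was 63.8 ± 2.18% against 66.6 ± 4.84% in ESCs (exact permutation p = 0.5). The share of Rxra was 24.5 ± 1.43% in EpiLCs against 33.4 ± 4.92% in ESCs, without overlap (exact permutation p = 0.1).

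Nr2f6 (ENSMUSG00000002393), an orphan receptor of the COUP-TF group, rose from 6.65, 8.50 and 7.09 TPM to 21.5, 27.8 and 23.3 TPM. Replicate 2 was the highest in both states, and the groups did not overlap (log2 fold change 1.58, SE 0.12, 95% interval 1.30 to 1.86, limma adjusted p = 1.7e-05). Nr2f6 overlaps Ocel1 on the opposite strand, which was at 1.97 TPM in ESCs and 0.944 TPM in EpiLCs. On chromosome 8, where Nr2f6 lies, 706 tested genes had a median change of 0.08. Nr2f2 (ENSMUSG00000030551, chromosome 7), the COUP-TFII gene of mesenchyme and heart, was at 0.315, 0.224 and 0.228 TPM in ESCs and 0.159, 0.0430 and 0.239 TPM in EpiLCs. It stayed under 1 TPM in all libraries. Nr2f6 made up 95.1 ± 1.53% of the NR2F transcripts in ESCs and 99.3 ± 0.455% in EpiLCs.

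**Figure D3:**
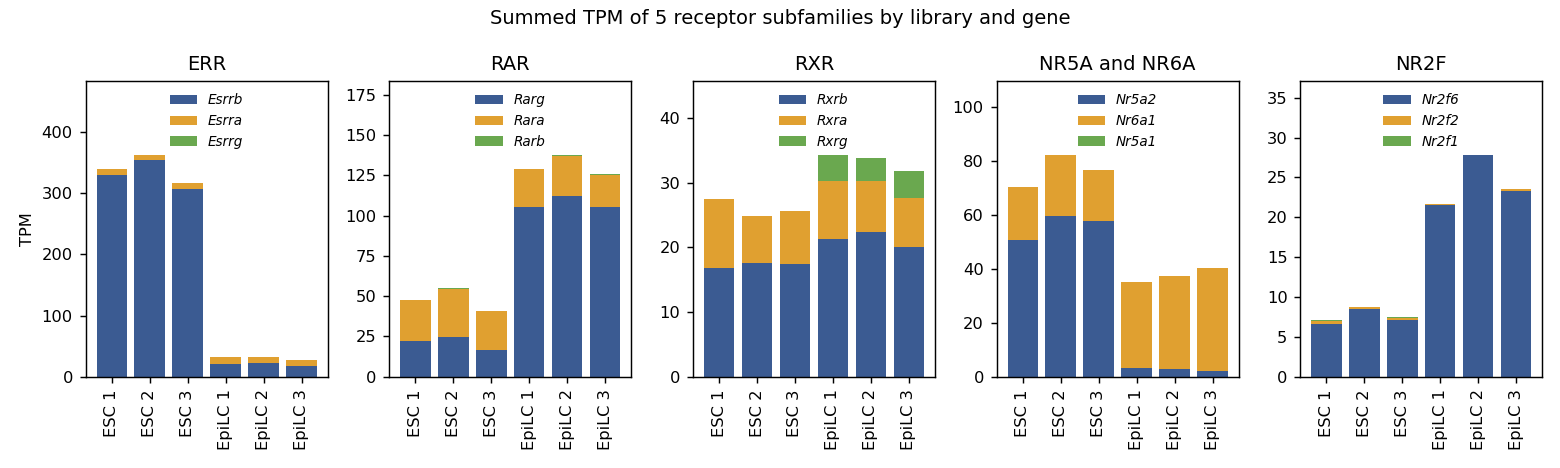
Summed TPM of 5 receptor subfamilies in each of the 6 libraries, as bars stacked by gene and starting at 0, each panel with its own scale. The ERR bar shrinks with Esrrb, the RAR bar grows with Rarg, Rxrg appears in the EpiLC libraries, and Nr6a1 takes the place of Nr5a2 as the larger part of its bar.

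The order of levels among the 10 genes changed accordingly. In ESCs it ran Esrrb, Nr5a2, Nr0b1, Rarg, Nr6a1, Rxrb, Esrra, Rxra, Nr2f6 and Nr2f2. The ranges of Rarg and Nr6a1 overlapped, as did those of Esrra, Rxra and Nr2f6 between neighbours. In EpiLCs the order was Rarg, Nr6a1, Nr2f6, Rxrb, Esrrb, Esrra, Rxra, Nr0b1, Nr5a2 and Nr2f2, with overlapping ranges between Nr2f6 and Rxrb, Rxrb and Esrrb, and Nr0b1 and Nr5a2. The 10 genes together took 507 ± 25.2 TPM in ESCs and 233 ± 9.21 TPM in EpiLCs. Without Esrrb the direction was the opposite, 176 ± 3.15 against 213 ± 7.76 TPM (exact permutation p = 0.1 for each sum). This opposite direction depends on Rarg, which alone rose by more than the sum without Esrrb did. Its libraries spanned 16.6 to 24.8 TPM in ESCs and 105 to 112 TPM in EpiLCs. Within the same sum Nr6a1, Nr2f6 and Rxrb also rose, while Nr5a2 and Nr0b1 fell, so it does not show a joint rise.

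Across all 49 nuclear receptors, 19 reached a mean of 1 TPM in ESCs and 21 in EpiLCs, and 21 were tested. Of these 10 were higher and 4 lower in EpiLCs, beside 36.1% and 30.9% of all tested genes, and the median change was 0.28 against 0.04. In both directions together 66.7% of the 21 were called, close to the 66.9% of all tested genes. With no filter on TPM, 47 receptors were tested, of which 13 were higher and 11 lower, beside 16.6% and 13.4% of 36675 genes. This set adds genes with means below 1 TPM, and its median size of change was 0.13 against 0.44 with the filter. Among the receptors not yet described, Nr1h2, the broadly expressed liver X receptor, rose from 14.9 ± 1.60 to 40.5 ± 2.36 TPM (log2 fold change 1.39, limma adjusted p = 7.9e-06) and stood next to Rarg in EpiLCs. The testicular receptor genes Nr2c1 and Nr2c2 rose by 1.40 and 0.49, the heme receptor gene Nr1d2 of the circadian clock by 0.73 and the glucocorticoid receptor gene Nr3c1 by 0.55 on the log2 scale. The immediate early receptor gene Nr4a1 fell from 9.10 ± 0.948 to 6.07 ± 0.682 TPM (log2 fold change -0.52, limma adjusted p = 0.0042). Thra was at 16.3 ± 0.940 and 18.7 ± 2.10 TPM, Ppard at 12.8 ± 1.37 and 11.4 ± 0.236 TPM and Nr1d1 at 7.47 ± 1.65 and 5.18 ± 1.94 TPM, none passing the test. Leaving out EpiLC replicate 2 gave a call for Thra, at 0.26 (adjusted p = 0.038, the alternatives spanning 0.038 to 0.377). Leaving out EpiLC replicate 3 gave one for Nr1d1, at -0.72 (adjusted p = 0.013, the alternatives spanning 0.013 to 0.292). Esrrb alone held 53.3 ± 1.01% of all nuclear receptor TPM in ESCs and 5.14 ± 0.502% in EpiLCs, and Rarg 3.41 ± 0.515% and 27.9 ± 0.370%.

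**Figure D4:**
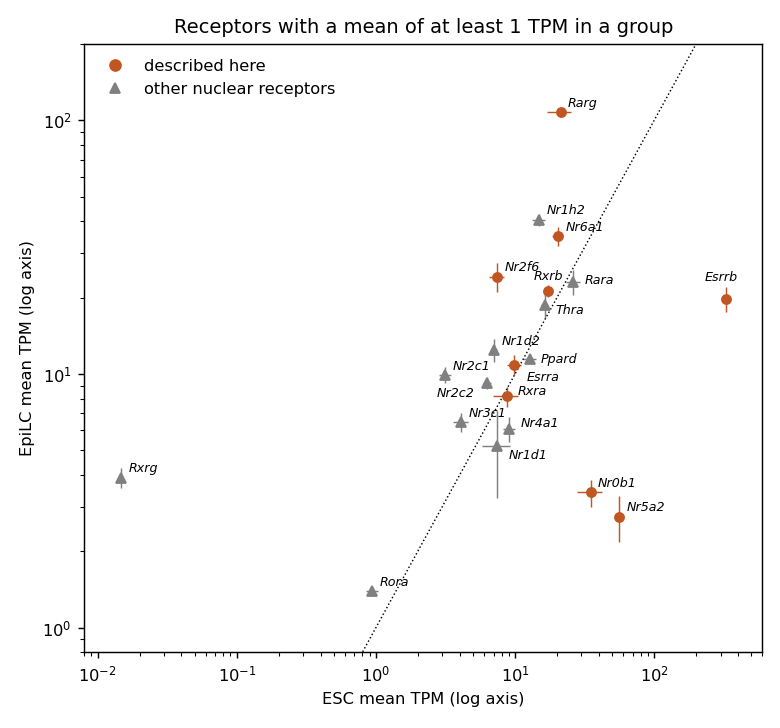
Mean TPM of every nuclear receptor that reached 1 TPM in a group, ESC on the x axis and EpiLC on the y axis, both log axes, with SD over 3 libraries as bars (the ESC bar of Rxrg is left out because it was listed at 0 in 2 libraries) and the line of equal levels dotted. Esrrb, Nr5a2 and Nr0b1 lie far below the line, and Rarg, Rxrg, Nr2f6, Nr1h2 and Nr2c1 above it.

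Receptors act through coregulators, and of 18 such genes 17 were tested. Of these 7 rose and 5 fell, a share of 70.6% called that is close to the 66.9% of all tested genes. The median change was 0.11 against 0.04, and the split turned to 4 higher and 6 lower under median-of-ratios scaling. The coactivator methyltransferase gene Carm1 rose by 0.60, from 85.8 ± 6.99 to 130 ± 7.14 TPM. The Mediator subunit gene Med1 rose by 0.59 and Pprc1, a relative of PGC-1, by 0.54 on the log2 scale. The coactivator gene Ncoa6 fell by 0.72, from 24.4 ± 0.158 to 14.4 ± 0.897 TPM. Nrip1, a corepressor of many receptors, and Tbl1xr1, a subunit of the NCoR complex, fell by 0.60 and 0.52 on the log2 scale. No change among the coregulators reached 2-fold.

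Genes for the supply and binding of retinoids moved both ways. Of 16 genes 11 were tested, and 6 rose and 3 fell, beside 36.1% and 30.9% of all tested genes, with a median change of 0.34 against 0.04. Crabp2, which delivers retinoic acid to its nuclear receptors, was at 3.04, 4.92 and 3.24 TPM in ESCs and 35.1, 26.7 and 38.1 TPM in EpiLCs, with no overlap (log2 fold change 2.86, SE 0.18, limma adjusted p = 6.3e-06). Stra6, the retinol uptake receptor gene, rose by 1.79 (2.96 with a pseudocount of 0.1 TPM), from 0.447 ± 0.196 to 4.01 ± 0.726 TPM, and Rdh11, a gene of the retinol dehydrogenase family, by 1.33 on the log2 scale. The related binding protein gene Crabp1 fell by 0.91, from 39.1 ± 2.11 to 20.4 ± 1.58 TPM. The retinaldehyde dehydrogenase genes Aldh1a2 and Aldh1a3, which make retinoic acid, fell by 1.04 and 0.44 and were at 1.13 ± 0.144 and 1.98 ± 0.166 TPM in EpiLCs.

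Known target genes of the retinoic acid receptors gave a mixed picture. Of 12 genes 8 were tested, 5 of the 12 being in the retinoid list as well, and 3 rose, Crabp2 and Stra6 among them, 1 fell and 4 did not pass the test, so that 50.0% were called beside 66.9% of all tested genes. The median change was 0.04, the same as over all tested genes. Below the filter were Rarb, Hoxb1, Meis1 and Cyp26a1, the retinoic acid hydroxylase gene. Cyp26a1 was at 0.0467 ± 0.0233 TPM in ESCs and 0.980 ± 0.335 TPM in EpiLCs. Hoxb1 was listed at 0 in every ESC library and was at 1.21 ± 0.783 TPM in EpiLCs. Meis1 went the other way, from 0.534 ± 0.0569 TPM in ESCs to 0.0799 ± 0.0307 TPM in EpiLCs. Rarb was at 0.270 ± 0.108 and 0.240 ± 0.142 TPM, with overlapping ranges.

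Genes known as targets of the estrogen-related receptors in energy metabolism were mostly lower in EpiLCs. All 15 were tested, 11 fell and 3 rose, beside 30.9% and 36.1% of all tested genes, with a median change of -0.46 against 0.04. Pdk4, the kinase that inhibits pyruvate dehydrogenase, was at 22.6, 22.7 and 20.2 TPM in ESCs and 3.71, 3.65 and 3.53 TPM in EpiLCs, far apart (log2 fold change -2.30, SE 0.08, limma adjusted p = 5.9e-07). Cpt1b, which brings fatty acids into mitochondria, fell from 8.95 ± 3.42 to 3.21 ± 0.739 TPM (log2 fold change -1.20), and the succinate dehydrogenase subunit gene Sdhb from 172 ± 10.8 to 101 ± 2.97 TPM (log2 fold change -0.76). The mitochondrial transcription factor gene Tfam rose by 0.41, the cytochrome c gene Cycs by 0.40 and the regulator gene Nrf1 by 0.22 on the log2 scale. The Nrf1 call was lost under median-of-ratios scaling (change of 0.14, adjusted p = 0.073, the alternatives spanning 0.0087 to 0.073). That these genes and Esrrb were lower in the same libraries is a comparison of levels, and regulation by Esrrb was not tested.

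**Figure D5:**
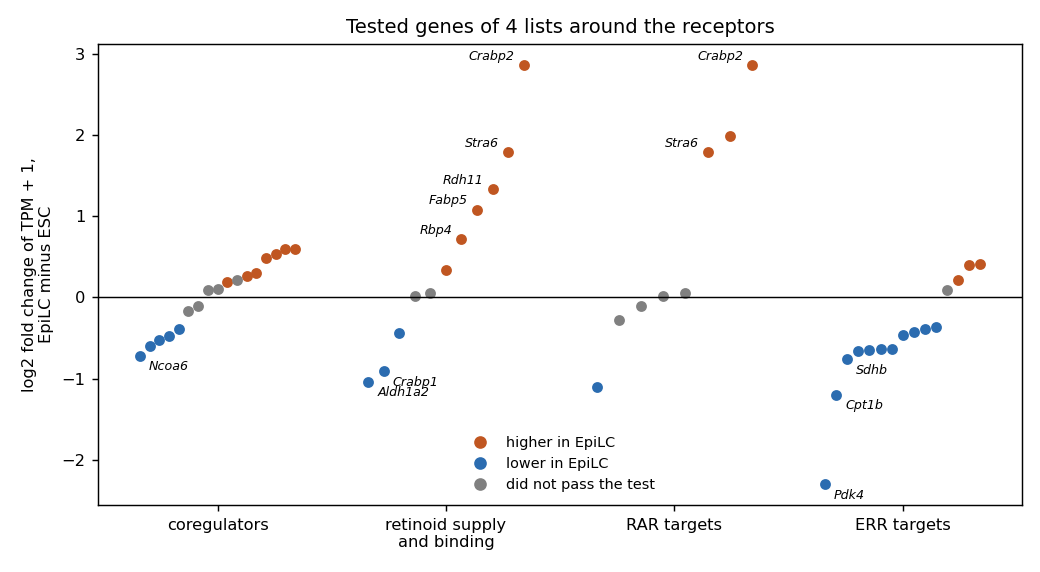
Log2 fold change of TPM + 1, EpiLC minus ESC, for each tested gene of 4 lists, in order of size within a list (orange higher, blue lower, grey not called). Crabp2 and Stra6 appear in both retinoid lists, and 11 of 15 ERR targets lie below 0 as called genes, Pdk4 lowest at -2.30.

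The genes whose course over the 6 libraries lay nearest to 3 of the receptors were listed by distance, taken as the Euclidean distance of log2(TPM + 1) values after subtracting each gene's mean, among 9276 other named genes of at least 5 TPM. With 2 groups of libraries such nearness mainly reflects a like size of change after 1 TPM is added. By mean TPM, Slc15a1 was 52.9 times lower in EpiLCs, against 16.7 times for Esrrb and 20.5 times for Nr5a2, and Elobl was at 0.213 ± 0.190 TPM there, so these genes rank near partly through the pseudocount. Nearest to Esrrb were the peptide transporter gene Slc15a1 (distance 0.16) and Socs3, the feedback inhibitor of STAT3 (0.20). Nr5a2 was at 0.25 and rank 4. Nearest to Nr5a2 were Slc15a1 (0.22), Esrrb (0.25) and Elobl (0.30). Nearest to Nr0b1 were the kinase gene Mok (0.35), the guidance ligand gene Slit2 (0.38) and Xaf1 (0.38), while Nr5a2 and Esrrb were at ranks 172 and 175 with a distance of 1.36.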

How the data were processed

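The authors deposited 1 table of TPM values, 1 column per library and not pooled. Per the submitters' processing notes, FastQC, Trim Galore, STAR and Salmon were used with mm39/GRCm39. Versions, annotation release, each tool's role and how transcripts were summed to genes are not given in the sources used here. Per the labels' protocols, poly(A) RNA was selected and libraries kept strand. The meaning of 0uM in the column names is not given.

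Genes with a mean of at least 1 TPM over the 6 libraries were tested on log2(TPM + 1) with limma 3.58.1 in R 4.3.3 (eBayes, prior variance following mean level). Two-sided p-values were adjusted after Benjamini and Hochberg over 14036 genes. The test was checked on simulated data in which far fewer genes changed than were called here. That check gives no error rate for these data. Shares and sums were compared over libraries by exact permutation. Python 3.11.15, pandas 2.3.3, numpy 2.4.6 and matplotlib 3.10.9 were used. Chromosomes and overlaps came from GENCODE M21 by identifier (95.1% of tested genes matched). Its build differs from the authors', as does that of the RefSeq promoters (GRCm38.p6).

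Members and lists were chosen with earlier results of these data known. Named were all 10 members, other receptors of at least 5 TPM, the 3 largest called rises and falls of each list, and the 3 nearest genes in pattern. A few of these are not reported here. Rarb, Hoxb1, Meis1, Cyp26a1 and Esrrg were named after their values were seen. Tried besides were a replicate block, each library left out, a constant prior variance, quantile normalization, median-of-ratios scaling, filters of 5 TPM or none, and pseudocounts of 0.1 and 0.5.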

Additional observations from a re-analysis of the deposited data

How the results depend on the processing

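The 4 higher and 3 lower receptor calls were the same in number under all 14 alternatives. Of 40 receptors and list genes chosen by the naming rule, 36 kept their direction and their side of the threshold in every alternative run. The exceptions were Nr1d1, Thra and Nrf1, given with their values above, and Rxra, whose uncalled change ranged from -0.178 (without ESC replicate 2) to 0.065 (without ESC replicate 1), a reversed sign. With no TPM filter, the receptor family had 11 lower calls and the RAR targets 5 higher and 2 lower. With a filter at 5 TPM, the retinoid list had 3 higher and 1 lower calls, and limma called 0 of 5 RAR targets lower (also 0 at an unadjusted p under 0.05), since fewer genes were tested. Median-of-ratios scaling gave 4 higher coregulators, and the cause was not tested. It moved the median change of all tested genes from 0.04 to -0.03. The labels do not say whether same-numbered libraries of the 2 groups were handled as pairs. The correlations of their deviations were 0.10, 0.14 and 0.06, each the highest for its library. Pairs of unlike number ran from -0.11 to 0.02, so a link between same-numbered libraries cannot be told from these labels. With a replicate block, 5135 genes were higher and 4477 lower, against 5062 and 4335. TPM keep no depth, so no counting error can be given, also for the calls that genes below 1 TPM received with no filter. Nr2f2, under 1 TPM in all libraries, did not pass the test there (log2 fold change -0.13, limma adjusted p = 0.269 with no filter).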
